A study of Homo sapiens with 9 samples.

Results

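Antisense RNAs are transcripts named after the gene on whose opposite strand they lie, and 285 of them were expressed in naive and differentiating human embryonic stem cells. They were chosen by name and level, as symbols that end in AS and a number with a mean of at least 1 CPM (count divided by library total, times 1000000) in at least 1 of 3 culture groups. The table held 1783 such symbols, of which 1033 had any count, among 40332 gene symbols in all. The level of CPM was the only measured value in the choice, so that presence at 1 CPM is no finding. Just inside this level lay DDN-AS1, FOXD2-AS1, CBLL1-AS1, SREBF2-AS1 and GAS6-AS1, at 1.01 to 1.05 CPM in their highest group. Just outside lay SNAI3-AS1, FGF14-AS2, SLCO4A1-AS2, BBOX1-AS1 and TTBK2-AS1, at 0.947 to 0.978 CPM. Each antisense RNA was set beside the gene whose name precedes the suffix, called its sense partner. A partner was found in the table for 284 antisense RNAs, which gave 281 distinct genes because some genes have more than 1 antisense symbol. HOXB-AS1 is named after a gene cluster and has no single partner.

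All libraries came from H1, an established embryonic stem cell line labelled wild type, so that every value rests on 1 line. RNA-seq was made of 3 libraries in each of 3 groups. The PXGL group was kept in a medium named after its 4 additions, which block MEK, tankyrase and protein kinase C and supply the cytokine LIF, and which hold cells in a naive state like that of the early epiblast. The N2B27 group was in the basal medium alone, and the third group received N2B27 with 5 µM EPZ-6438 for 3 days. EPZ-6438 blocks EZH2, the enzyme of Polycomb repressive complex 2 (PRC2) that places the repressive mark H3K27me3 on histones. No source used here gives the time in N2B27 without inhibitor, so that an effect of the inhibitor and of a difference in time cannot be told apart. The series text asks whether EZH2 and PRC2 hold back primitive endoderm fate.

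Total counts were 14482124 to 18358519 per library, so that 3 counts corresponded to 0.164 to 0.211 CPM. The pluripotency factor POU5F1 had a mean of 1320 CPM in PXGL, 1426 CPM in N2B27 and 1178 CPM with EPZ-6438. Of the other pluripotency markers SOX2 had 132.6, 116.5 and 63.6 CPM and NANOG 421, 455 and 353 CPM in the same order. LIN28A had 917, 1767 and 1520 CPM, DPPA4 528.7, 767.5 and 606.4 CPM and TDGF1 557.6, 850.2 and 654.7 CPM. Markers of the naive state stayed high outside PXGL, with summed counts of 130285, 85863 and 90069. In the same order KLF17 had 58.0, 57.7 and 74.2 CPM and SUSD2 515, 569 and 744 CPM. DPPA3 had 763, 672 and 571 CPM, DPPA5 613, 403 and 301 CPM and TFCP2L1 296, 231 and 211 CPM. KLF4 had 145.5, 38.3 and 54.1 CPM. Markers of other states differed between the groups, and not all in the same way. Summed counts of the 5 primed-state markers were 1305 in PXGL, 18547 in N2B27 and 9427 with EPZ-6438. Most of these counts came from CD24 and THY1. In the same order THY1 had means of 0.623, 118.5 and 43.5 CPM and CD24 22.81, 237.4 and 105.8 CPM. SFRP2 had 0.202, 59.68 and 38.2 CPM and DUSP6 0.1841, 4.468 and 3.929 CPM. ZIC2 went the other way with EPZ-6438, at 0.1291, 5.568 and 13.04 CPM. The mesendoderm factor TBXT had a mean of 0.0731 CPM in PXGL, 5.81 CPM in N2B27 and 65.7 CPM with EPZ-6438. The hypoblast factor GATA6 had 0.312, 0.731 and 7.97 CPM in the same order. Of the other hypoblast markers GATA4 had 7.6, 14.0 and 22.7 CPM and HNF4A 29.4, 8.31 and 21.0 CPM. PDGFRA had 5.21, 5.74 and 5.57 CPM, and SOX17 0.110, 0.0234 and 0.703 CPM. Trophectoderm markers had summed counts of 682, 816 and 1186, and neuroectoderm markers 110, 72 and 355. Summed counts of the 4 mesendoderm markers were 531, 855 and 6181, and those of the 5 hypoblast markers were 2321, 1254 and 2672. Those of the 5 fibroblast markers were 907, 2351 and 1966: COL3A1, LUM and DCN were at or near 0 in every group, while COL1A1 had means of 14.0, 25.6 and 19.2 CPM and COL1A2 2.48, 28.4 and 23.3 CPM. The part of such cells or states in the changes below was not tested. PXGL replicate 1 lay away from the 2 others of its group, with a chi-square per degree of freedom of 19.6 and 26.3 against them, where all other pairs of replicates had 2.57 to 3.67. Results are therefore given without it where they move.

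Antisense transcription often starts near the promoter of a sense gene, and such divergent promoters fire in both directions. Other antisense RNAs start inside or beyond the far end of the sense gene and run into it. Antisense RNAs can act on the nearby gene in cis, act elsewhere, or have no known role, and many are far less abundant than the messenger RNA of their partner. PRC2 is known for silencing developmental genes whose promoters are rich in CG dinucleotides, and its targets in embryonic stem cells include FOX, SOX, GBX and HOX genes.

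Of the 285 antisense RNAs, 99 were divergent to their partner in the GENCODE 29 annotation of GRCh38: the genes lie on opposite strands and the antisense RNA starts within 5000 bases upstream of the sense start, or no more than 1000 bases inside it. A further 66 pairs met tail to tail, 51 antisense genes lay embedded in the sense gene, 40 overlapped its head and 25 contained it. Only FAM131B-AS2 lay on the strand of its partner in this annotation, and 1 pair did not touch. In 225 pairs the exons of both genes shared bases and in 58 they did not. The median share of antisense exon bases inside partner exons was 7.21%, and 17 antisense RNAs had over 50 percent there. No source used here says whether reads were counted by strand, and reads from shared exon bases therefore cannot be told apart between both genes. Among divergent pairs the median distance between both starts was 398 bases, and 61 of the 99 lay within 500 bases.

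For 7 divergent pairs the antisense start fell inside the 250 bases before the RefSeq start of the sense gene, with no base of a sense exon there. The sequences of 4 of them are shown because the antisense RNA starts inside this stretch and the RefSeq start of the sense gene lies at its end. The pairs also went different ways in culture: both genes fell in N2B27 (SOX21), both rose with EPZ-6438 against N2B27 (HERPUD2), the sense gene passed the test in N2B27 against PXGL and the antisense RNA did not (TRIM52), or the antisense RNA passed with EPZ-6438 against N2B27 and the sense gene did not (ZNF528). Whether both genes of such a pair differed in their change was not tested. They were chosen after their values were seen. Each runs 5′ to 3′ on the sense strand up to the base before the sense start (RefSeq, GRCh38.p14), and capitals mark CG dinucleotides.

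SOX21: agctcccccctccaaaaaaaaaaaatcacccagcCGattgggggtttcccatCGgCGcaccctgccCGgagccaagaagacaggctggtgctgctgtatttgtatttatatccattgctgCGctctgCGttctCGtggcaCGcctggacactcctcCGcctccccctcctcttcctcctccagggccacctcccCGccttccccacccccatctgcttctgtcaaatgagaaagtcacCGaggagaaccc
HERPUD2: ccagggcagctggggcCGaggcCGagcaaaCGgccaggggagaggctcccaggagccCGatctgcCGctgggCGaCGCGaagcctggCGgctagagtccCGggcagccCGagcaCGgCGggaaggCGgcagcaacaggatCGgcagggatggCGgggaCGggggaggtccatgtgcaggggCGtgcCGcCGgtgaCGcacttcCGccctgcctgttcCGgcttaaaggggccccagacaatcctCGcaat
TRIM52: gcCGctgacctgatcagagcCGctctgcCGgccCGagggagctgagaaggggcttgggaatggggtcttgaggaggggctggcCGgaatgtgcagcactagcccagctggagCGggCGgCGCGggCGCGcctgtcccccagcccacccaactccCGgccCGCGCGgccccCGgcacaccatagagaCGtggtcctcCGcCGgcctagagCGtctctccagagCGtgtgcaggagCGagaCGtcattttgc
ZNF528: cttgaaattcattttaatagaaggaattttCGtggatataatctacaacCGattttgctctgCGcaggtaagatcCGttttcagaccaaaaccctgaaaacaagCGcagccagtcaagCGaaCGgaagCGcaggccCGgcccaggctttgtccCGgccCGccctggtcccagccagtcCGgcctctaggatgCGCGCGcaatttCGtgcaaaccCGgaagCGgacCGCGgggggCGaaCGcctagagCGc

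The SOX21 stretch lies at chr13:94712546-94712795 on the minus strand, and SOX21-AS1 starts 171 bases upstream of SOX21. HERPUD2 has chr7:35695136-35695385 on the minus strand with the antisense start 79 bases upstream of the RefSeq start. TRIM52 has chr5:181261144-181261393 on the minus strand with a distance of 69 bases. ZNF528 has chr19:52397599-52397848 on the plus strand with a distance of 83 bases. In GENCODE, which gave the pair geometry, HERPUD2 starts further upstream, at 35695571. By that annotation this stretch lies inside HERPUD2 but outside its exons, and HERPUD2-AS1 starts inside the gene. The HERPUD2 exons of GENCODE share 152 bases with HERPUD2-AS1, outside this stretch. The letters CG, which read the same on both strands, occur 11, 24, 23 and 23 times in the 4 stretches, and the median over all 27305 RefSeq windows of this length was 11. SOX21 thus had the median number and the other 3 had more. The letters CCAAT were in the SOX21 stretch only, and in 33.0% of all windows on either strand. TATAAA was also in SOX21 only, and in 11.1% of all windows. A RefSeq window was found for 234 sense partners. Their median was 20 CG, with 23 for the 86 partners of divergent antisense RNAs and 18 for the 149 others (1 gene is in both sets). A match of letters is a description of these windows and not a binding site.

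SOX21 is a SOXB transcription factor of neural progenitors, and SOX21-AS1 is the RNA that starts beside it. SOX21-AS1 had 4.17, 5.15 and 4.78 CPM in PXGL, 1.18, 2.04 and 1.27 CPM in N2B27, and 2.08, 3.10 and 3.19 CPM with EPZ-6438. SOX21 had 5.59, 4.27 and 5.22 CPM, then 1.53, 1.97 and 2.53 CPM, then 2.82, 3.10 and 3.19 CPM. Both genes were highest in PXGL in every library and lowest in N2B27, with no exon base in common. In N2B27 against PXGL SOX21-AS1 fell by 1.65 on the log2 scale (SE 0.27, edgeR adjusted p = 7.42e-05) and SOX21 by 1.32 (SE 0.24, edgeR adjusted p = 0.000169). With EPZ-6438 against N2B27 SOX21-AS1 was 1.87-fold higher (edgeR adjusted p = 0.0300). This call was lost without N2B27 replicate 1 or 3 or without EPZ-6438 replicate 2 or 3 (edgeR adjusted p = 0.101 to 0.114). SOX21 was 1.5-fold higher and did not pass (edgeR adjusted p = 0.0990).

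HERPUD2 encodes a ubiquitin-like domain protein of the endoplasmic reticulum membrane. HERPUD2 had 7.46, 9.26 and 8.77 CPM in PXGL, 4.94, 6.75 and 5.33 CPM in N2B27 and 8.25, 9.37 and 7.73 CPM with EPZ-6438. It fell 1.5-fold in N2B27 against PXGL (edgeR adjusted p = 0.00735), and its PXGL and inhibitor libraries overlapped. HERPUD2-AS1 had 1.59, 3.78 and 1.78 CPM in PXGL, 2.79, 1.90 and 1.93 CPM in N2B27 and 4.16, 5.05 and 3.53 CPM with EPZ-6438. All 3 inhibitor libraries lay above all N2B27 libraries, a 1.93-fold rise (edgeR adjusted p = 0.0395), beside a 1.49-fold rise of HERPUD2 (edgeR adjusted p = 0.0201). Both calls were lost when any 1 of several libraries was left out. The antisense call was lost without N2B27 replicate 2 or 3 or without any 1 of the inhibitor libraries (edgeR adjusted p = 0.0520 to 0.154), and the sense call without N2B27 replicate 1 or 3 or EPZ-6438 replicate 2 (edgeR adjusted p = 0.0769 to 0.0907). TRIM52, a RING-finger protein, fell 1.63-fold in N2B27 against PXGL (edgeR adjusted p = 0.000643), while TRIM52-AS1 had 4.11 to 5.78 CPM in PXGL and 2.74 to 4.39 CPM in N2B27 and did not pass (edgeR adjusted p = 0.0613). ZNF528-AS1 had 7.94 to 9.38 CPM in PXGL, 6.74 to 8.29 CPM in N2B27 and 8.95 to 12.1 CPM with EPZ-6438. It was 1.43-fold higher with the inhibitor than in N2B27 (edgeR adjusted p = 0.0237), a call lost without N2B27 replicate 2 or 3 or EPZ-6438 replicate 1 or 2 (edgeR adjusted p = 0.0604 to 0.108). ZNF528, a zinc finger gene, differed by 1.04-fold there (edgeR adjusted p = 0.732).

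The antisense RNAs were a small share of the transcriptome in every culture. Their summed counts were 0.197% to 0.221% of all counts in the PXGL libraries, 0.172% to 0.178% in N2B27 and 0.183% to 0.185% with EPZ-6438. The median of their mean levels was 2.10 CPM (quartiles 1.11 and 5.26), against 20.3 CPM for all genes tested. Per kilobase of exon the median antisense level was 0.808 CPM in PXGL, 0.708 CPM in N2B27 and 0.779 CPM with EPZ-6438, and the median sense level was 3.55, 3.65 and 4.43 CPM. In PXGL 74 of 283 antisense RNAs exceeded their partner per kilobase, in N2B27 77 and with EPZ-6438 74. For 63 pairs this held in all 3 groups.

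**Figure D1:**
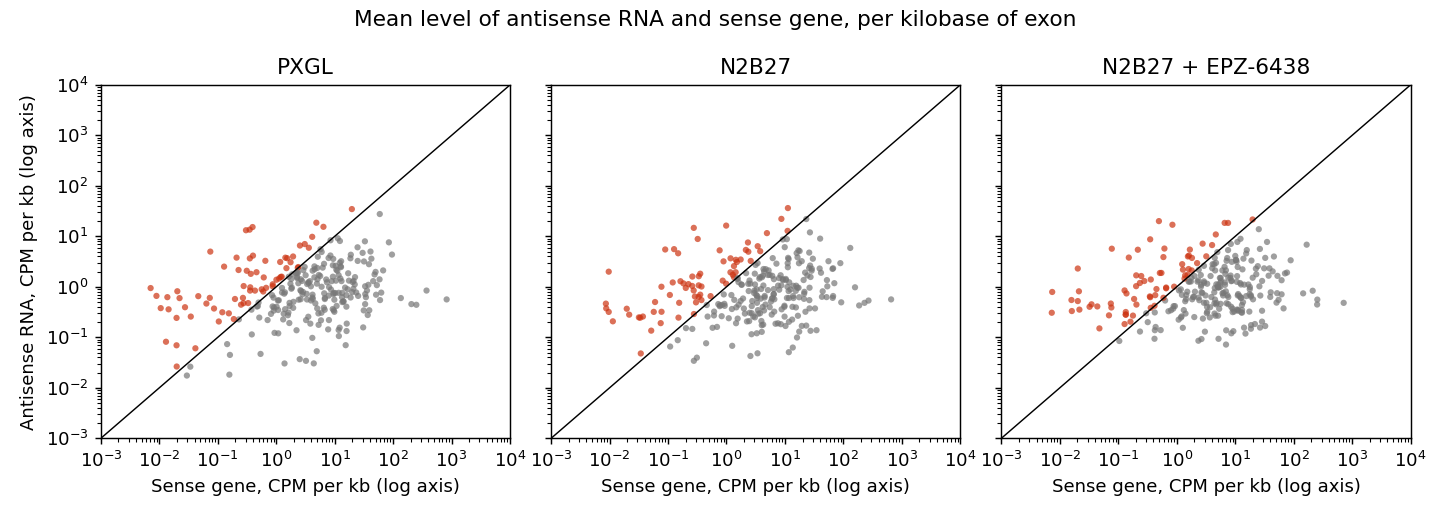
Mean level per kilobase of exon of each antisense RNA (vertical, log axis) against its sense gene (horizontal, log axis) in the 3 culture groups, where each point is 1 pair with both levels above 0 and the line marks equal levels. Most pairs lie below the line, and red points are the pairs (74, 77 and 74 of 283 in PXGL, N2B27 and N2B27 with EPZ-6438, including those whose sense level is 0 and cannot be drawn) with the antisense RNA above its partner.

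The most abundant antisense RNA was OIP5-AS1, a long cytoplasmic RNA also called Cyrano, next to the centromere factor gene OIP5. It had 386, 454 and 480 CPM in PXGL, 284, 273 and 280 CPM in N2B27 and 273, 277 and 271 CPM with EPZ-6438. Its PXGL libraries lay above all others, and the N2B27 and inhibitor libraries overlapped. It fell 1.58-fold in N2B27 against PXGL (edgeR adjusted p = 8.66e-07), while OIP5 did not pass in that comparison (log2 change 0.24, SE 0.12). Per kilobase OIP5-AS1 had 34.7 CPM in PXGL against 19.7 CPM for OIP5, and in N2B27 22 against 23.2 CPM. Next in level were NNT-AS1 (means of 182, 78.9 and 91.2 CPM in PXGL, N2B27 and with EPZ-6438), FGD5-AS1 (67.8, 83.8 and 87.1 CPM), THAP9-AS1 (82.0, 51.0 and 47.9 CPM), EPB41L4A-AS1 (51.1, 49.3 and 67.0 CPM) and ARHGEF35-AS1 (27.7, 63.8 and 35.1 CPM).

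At 1 CPM, 185 antisense RNAs were present in all 3 groups and 100 in only 1 or 2. Of the latter 33 reached the level in PXGL alone, 23 with EPZ-6438 alone, 8 in N2B27 alone, 18 in both N2B27 groups, 11 in PXGL and with EPZ-6438, and 7 in PXGL and N2B27. An antisense RNA that entered through 1 high group had to differ from the others. For single antisense RNAs, tests below are therefore given only for the 185, and the 100 are described by their values. Counts of calls over all 285 are descriptions, since they include calls that the choice favours. Sense partners did not enter the choice. All 285 passed the low-count filter, as did 259 of 281 partners.

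Leaving PXGL for N2B27 changed the level of many antisense RNAs, and the falls included some of the most abundant ones. NNT-AS1, THAP9-AS1 and OIP5-AS1 fell, and FOXD3-AS1, ARHGEF35-AS1 and GBX2-AS1 rose. Of the 185 antisense RNAs present in all groups, 27 rose and 38 fell. Over all 285, 46 were called higher and 58 lower (104, 36.5%), where 56.0% of all 15179 genes tested were called (27.3% higher and 28.7% lower). The same share was 45.3% for long intergenic RNA symbols (LINC) at the same level and 54.4% for the tested sense partners (74 higher and 67 lower). The antisense share was below that of all genes, and so it was between the quartiles of the antisense levels, where 30.8% of antisense RNAs and 49.0% of all genes were called. The difference between these shares was not tested. Against a threshold of 1.5-fold 48 antisense RNAs were called, beside 19.5% of all genes. The median log2 change was -0.14 for antisense RNAs and -0.03 for all genes. Of the 65 calls among the 185, 45 held whichever library was left out. Without PXGL replicate 1 there were 118 calls over all 285 beside a background of 61.2%.

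FOXD3-AS1 lies at chromosome 1, 63320884 to 63324441, on the minus strand, and overlaps the head of FOXD3, a forkhead factor of pluripotent and neural crest cells. FOXD3-AS1 had 5.43, 4.82 and 4.22 CPM in PXGL, 43.3, 47.3 and 41.1 CPM in N2B27 and 23.7, 22.7 and 20.5 CPM with EPZ-6438. FOXD3 had 4.66, 4.05 and 3.44 CPM, then 23.4, 21.4 and 25.6 CPM, then 13.8, 16.4 and 17.1 CPM. For both genes the 3 groups did not overlap, with PXGL lowest and N2B27 highest. FOXD3-AS1 rose 9.08-fold in N2B27 (log2 change 3.18, SE 0.12, edgeR adjusted p = 1.48e-12) and FOXD3 5.78-fold (edgeR adjusted p = 2.98e-10). With EPZ-6438 against N2B27 FOXD3-AS1 fell by 0.98 on the log2 scale (SE 0.10, edgeR adjusted p = 2.72e-06) and FOXD3 by 0.57 (SE 0.13, edgeR adjusted p = 0.00321). The exons share 179 bases, 15% of those of FOXD3-AS1.

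NNT-AS1 and NNT, the mitochondrial transhydrogenase that makes NADPH, fell together and are a divergent pair on chromosome 5 (NNT-AS1 at 43571594 to 43603230, minus strand). NNT-AS1 had 189, 178 and 179 CPM in PXGL, 81.1, 82.5 and 73.0 CPM in N2B27 and 95.5, 89.3 and 88.8 CPM with EPZ-6438. NNT had 464, 497 and 501 CPM, then 211, 220 and 232 CPM, then 205, 215 and 207 CPM. In N2B27 NNT-AS1 fell 2.31-fold (edgeR adjusted p = 2.1e-10) and NNT 2.21-fold (edgeR adjusted p = 1.21e-10). Relative to N2B27 NNT-AS1 was 1.16-fold higher with EPZ-6438 (edgeR adjusted p = 0.0329), which held only without N2B27 replicate 2 or PXGL replicate 1 and reached 0.0630 to 0.178 without any 1 of the other 5 libraries. NNT differed by 1.06-fold (edgeR adjusted p = 0.380).

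ARHGEF35, a gene with a near copy, ARHGEF5, and ARHGEF35-AS1 both rose in N2B27. The copy makes the split of reads uncertain. ARHGEF35-AS1 had 28.3, 27.1 and 27.6 CPM in PXGL, 63.8, 61.6 and 66.0 CPM in N2B27 and 37.2, 33.0 and 35.2 CPM with EPZ-6438. ARHGEF35 had 14.8, 12.9 and 14.2 CPM, then 26.0 to 27.6 CPM in N2B27, then 19.2, 22.7 and 19.5 CPM. In both genes every N2B27 library was above every library of the other groups. The antisense RNA was 2.31-fold higher in N2B27 than in PXGL (edgeR adjusted p = 1.6e-09). With EPZ-6438 it was lower than in N2B27 by 0.86 on the log2 scale (SE 0.08, edgeR adjusted p = 5.6e-07). ARHGEF35 was 1.94-fold higher in N2B27 than in PXGL, and with EPZ-6438 lower than in N2B27 by 0.40 on the log2 scale (SE 0.10, edgeR adjusted p = 0.00954).

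GBX2, a homeobox factor of the epiblast and hindbrain, rose with its divergent antisense RNA. GBX2-AS1 had 0.932, 1.48 and 1.06 CPM in PXGL, 4.53, 7.66 and 4.80 CPM in N2B27 and 4.76, 6.02 and 5.49 CPM with EPZ-6438, so that both N2B27 groups overlapped and lay above PXGL. GBX2 had 0.439, 0.876 and 0.611 CPM, then 9.47, 8.23 and 8.54 CPM, then 11.9, 10.4 and 12.1 CPM. The rise in N2B27 was 4.87-fold for GBX2-AS1 (edgeR adjusted p = 2.36e-06) and 13.5-fold for GBX2 (edgeR adjusted p = 6.37e-10). Of the GBX2-AS1 exon bases 19.8% lie in exons of GBX2, and the part of shared reads in its rise was not tested.

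TMEM254-AS1, divergent to the membrane protein gene TMEM254, showed the steepest fall among antisense RNAs present in all groups. It had 13.4, 14.4 and 18.4 CPM in PXGL, 2.16, 1.83 and 1.80 CPM in N2B27 and 2.08, 3.10 and 3.73 CPM with EPZ-6438. This was a 7.95-fold fall in N2B27 (log2 change -2.99, SE 0.22, edgeR adjusted p = 5.7e-09). TMEM254 had 16.5 to 19.8 CPM in PXGL and 13.1 to 13.8 CPM in N2B27 and fell 1.34-fold (edgeR adjusted p = 0.00560). The ratio of antisense to sense counts was 0.679 to 1.05 in PXGL and 0.137 to 0.157 in N2B27, with no overlap. SNAP25-AS1, whose gene contains that of the synaptic SNARE protein SNAP25, fell 3.46-fold (edgeR adjusted p = 5.17e-05) from 4.16 to 5.97 CPM to 1.27 to 1.60 CPM. LMNTD2-AS1, with 45.4% of its exon bases in exons of LMNTD2, fell 3.24-fold (edgeR adjusted p = 9.42e-05) from 7.89 to 7.95 CPM to 1.27 to 3.87 CPM. SNAP25 (1.18-fold lower) and LMNTD2 (1.73-fold lower) did not pass.

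**Figure D2:**
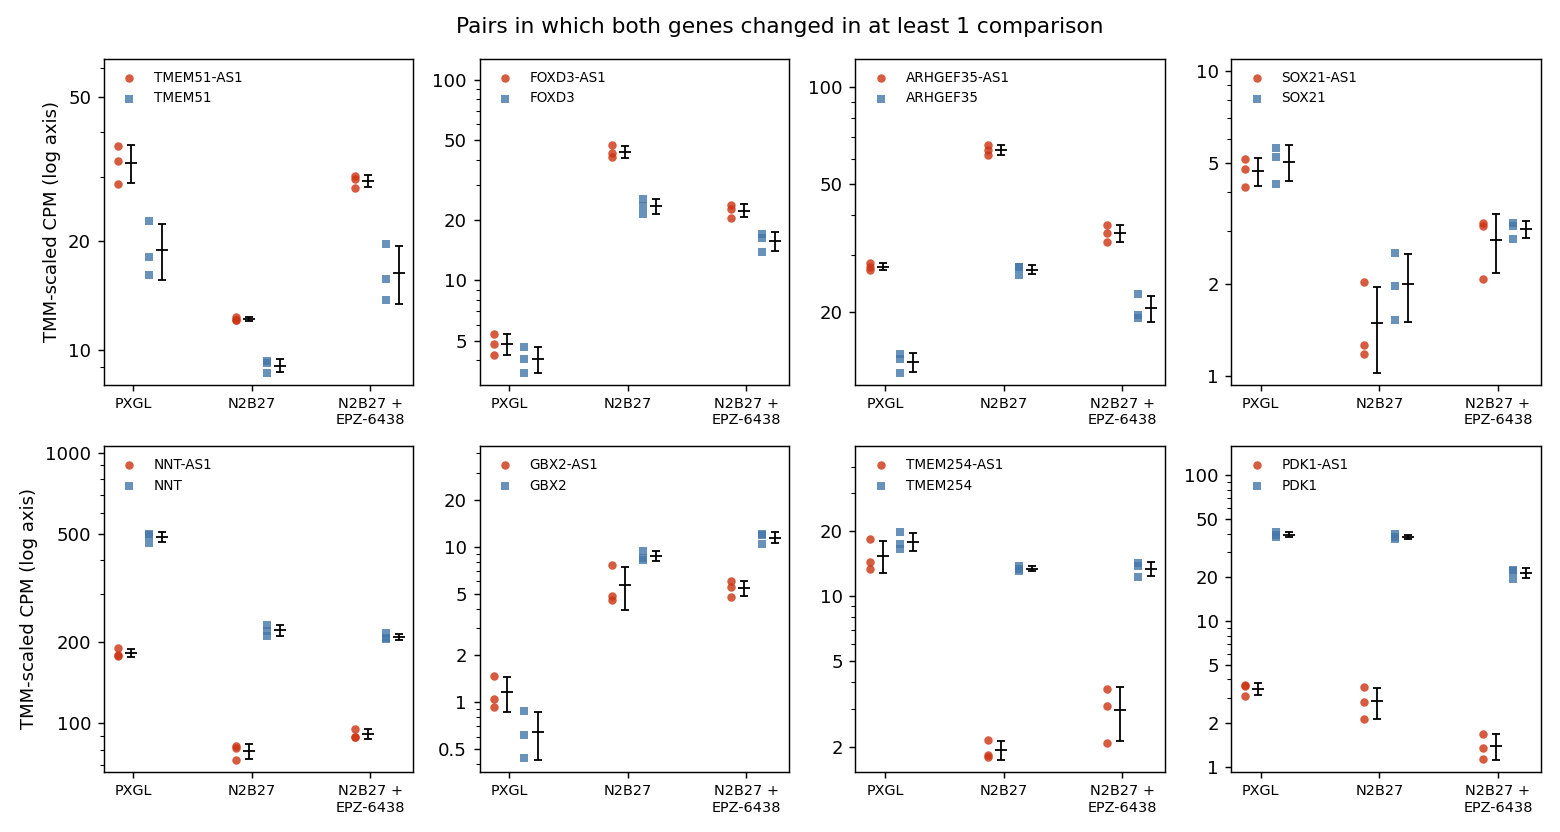
TMM-scaled CPM (log axis) of 8 pairs in PXGL, N2B27 and N2B27 with EPZ-6438, with antisense RNAs as red circles, sense genes as blue squares, 1 point per library, and bars for the mean ± SD (n = 3). TMEM51 and its antisense RNA are lowest in N2B27, FOXD3 and ARHGEF35 with theirs are highest there, and TMEM254-AS1 drops from 13.4 to 18.4 CPM in PXGL to about 2 CPM in N2B27 while TMEM254 lies between 12.2 and 19.8 CPM.

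In other pairs the antisense RNA passed the test and the partner did not, and whether both changes differed was not tested. THAP9-AS1, divergent to THAP9, a gene derived from a DNA transposase, had 86.4, 80.3 and 79.2 CPM in PXGL, 51.7, 50.6 and 50.6 CPM in N2B27 and 51.4, 47.6 and 44.9 CPM with EPZ-6438. It fell 1.61-fold in N2B27 (edgeR adjusted p = 7.38e-07). THAP9 had 20.1 to 22.1 CPM, 20.1 to 22.2 CPM and 18.9 to 21.6 CPM in the 3 groups, with a log2 change of 0.02 (SE 0.10) in N2B27. Their exons share 199 bases. ZNF350-AS1 shares no exon base with ZNF350, a KRAB zinc finger repressor. ZNF350-AS1 had 8.23, 10.4 and 11.3 CPM in PXGL, 3.62, 2.46 and 2.93 CPM in N2B27 and 5.57, 7.18 and 7.80 CPM with EPZ-6438. The N2B27 libraries lay below all others: ZNF350-AS1 fell 3.31-fold on leaving PXGL (edgeR adjusted p = 1.92e-06) and was 2.28-fold higher with EPZ-6438 than in N2B27 (edgeR adjusted p = 0.000494). ZNF350 had 13.6 to 20.9 CPM over all 9 libraries and did not pass in either comparison (edgeR adjusted p = 0.0893 and 0.217).

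With EPZ-6438 against N2B27 few antisense RNAs changed. TMEM51-AS1, ZNF350-AS1 and TPT1-AS1 rose and FOXD3-AS1, ARHGEF35-AS1 and PDK1-AS1 fell. Of the 185 present in all groups 15 rose and 6 fell. Over all 285 there were 23 calls higher and 7 lower (30, 10.5%) against 24.7% of all genes tested (14.2% higher and 10.6% lower), 12.9% of LINC symbols and 28.6% of tested sense partners (43 higher and 31 lower). Between the quartiles of the antisense levels 9.09% of antisense RNAs and 21.4% of all genes were called. More calls upward than downward were also seen in all genes of that level (16.7% higher and 4.75% lower) and in LINC symbols (20 higher and 2 lower, 11.8% and 1.18%). The median log2 change was 0.11 for antisense RNAs and 0.01 for all genes. Of the 21 calls among the 185, 7 held without any 1 of 7 libraries (the 6 compared and PXGL replicate 1): those of TMEM51-AS1, FOXD3-AS1, ARHGEF35-AS1, TPT1-AS1, ZNF350-AS1, SVIL-AS1 and EPB41L4A-AS1. The count over all 285 was 18 without N2B27 replicate 3 or without EPZ-6438 replicate 1, 19 without EPZ-6438 replicate 3, 20 without N2B27 replicate 1 or EPZ-6438 replicate 2 and 22 without N2B27 replicate 2, where 17.8% to 18.4% of all genes were called (18.1%, 18.2%, 18.0%, 17.8%, 18.4% and 18.4% in this order). Without PXGL replicate 1, which enters through the shared spread, 44 antisense RNAs and 123 sense partners were called beside a background of 37.2%. Against a threshold of 1.5-fold 5 antisense RNAs and 4.77% of all genes were called, and a fit of only these 2 groups called 38.7% of all genes and 118 partners.

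**Figure D3:**
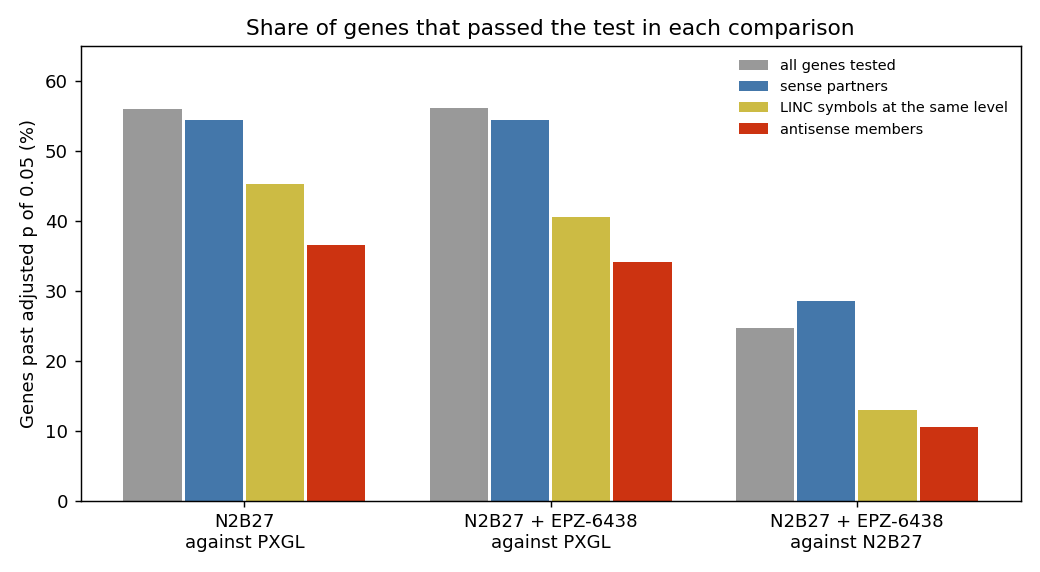
Share (%) of all 15179 genes tested, of tested sense partners, of LINC symbols at 1 CPM and of the 285 antisense RNAs that passed an adjusted p of 0.05 in each comparison (edgeR). The antisense bars are the lowest of each group, at 36.5%, 34.0% and 10.5%.

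TMEM51-AS1 was lower in N2B27 than in PXGL, and with EPZ-6438 it was near its PXGL level. It is divergent to TMEM51, a transmembrane protein gene, and lies at chromosome 1, 15111815 to 15153237, on the minus strand. TMEM51-AS1 had 28.8, 36.6 and 33.2 CPM in PXGL, 12.1, 12.4 and 12.1 CPM in N2B27 and 28.0, 29.6 and 30.3 CPM with EPZ-6438. TMEM51 had 22.7, 18.0 and 16.2 CPM, then 8.63, 9.21 and 9.34 CPM, then 15.7, 19.6 and 13.8 CPM. Both genes were low in all N2B27 libraries, while PXGL and inhibitor libraries overlapped. The antisense RNA fell 2.7-fold in N2B27 (edgeR adjusted p = 8.59e-09) and rose 2.41-fold with EPZ-6438 (log2 change 1.27, SE 0.11, edgeR adjusted p = 2.5e-07). TMEM51 fell 2.09-fold (edgeR adjusted p = 2.01e-05) and rose 1.81-fold (edgeR adjusted p = 0.000692). With EPZ-6438 against PXGL TMEM51-AS1 differed by -0.16 (SE 0.10) on the log2 scale. In all, 47% of the TMEM51-AS1 exon bases lie in exons of any other gene, and 253 bases in those of TMEM51.

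TPT1-AS1 rose with EPZ-6438, while its partner TPT1, which encodes the abundant translationally controlled tumour protein, did not pass the test. The pair was chosen after its values were seen. TPT1-AS1 had 4.61, 5.04 and 4.55 CPM in PXGL, 4.53, 4.15 and 4.67 CPM in N2B27 and 8.18, 8.70 and 9.22 CPM with EPZ-6438. The inhibitor libraries stood above the overlapping other 2 groups, a 1.95-fold rise over N2B27 (log2 change 0.97, SE 0.16, edgeR adjusted p = 0.000329). TPT1 had means of 1495, 1354 and 1541 CPM and a log2 change of 0.19 (SE 0.09, edgeR adjusted p = 0.142). SVIL-AS1, annotated as a transcribed pseudogene and also chosen after its values were seen, had 10.8 to 11.8 CPM in N2B27 and 18.1 to 19.9 CPM with EPZ-6438, a 1.67-fold rise (edgeR adjusted p = 0.00118). SVIL, an actin-binding protein gene, differed there by -0.07 (SE 0.12) on the log2 scale. It was 2.02-fold higher in N2B27 than in PXGL (edgeR adjusted p = 4.46e-06), where SVIL-AS1 did not pass (edgeR adjusted p = 0.145).

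EPB41L4A-AS1, embedded in the gene of a band 4.1 cytoskeletal protein, had 51.2, 50.8 and 45.9 CPM in N2B27 and 68.4, 69.8 and 62.8 CPM with EPZ-6438. It rose 1.36-fold (edgeR adjusted p = 0.00139). EPB41L4A rose 1.79-fold at low levels (2.13 to 2.58 CPM in N2B27 and 3.65 to 5.29 CPM with the inhibitor, edgeR adjusted p = 0.0190), a call lost without N2B27 replicate 2 or 3 or EPZ-6438 replicate 3 (edgeR adjusted p = 0.0509 to 0.104). Of the EPB41L4A-AS1 exon bases 49.6% lie in exons of EPB41L4A, where reads of both genes cannot be told apart. The part of such reads in the rise of the far less abundant EPB41L4A was not tested. PDK1-AS1 overlaps the head of PDK1, a pyruvate dehydrogenase kinase that limits the entry of pyruvate into the citric acid cycle. PDK1-AS1 had 3.62, 3.07 and 3.66 CPM in PXGL, 2.16, 2.81 and 3.53 CPM in N2B27 and 1.14, 1.70 and 1.36 CPM with EPZ-6438. PDK1 had 36.9 to 40.7 CPM in PXGL and N2B27 and 19.5 to 22.5 CPM with EPZ-6438. Both were lower in every inhibitor library: PDK1-AS1 fell by 1.01 on the log2 scale (SE 0.29, edgeR adjusted p = 0.0159) and PDK1 by 0.83 (SE 0.09, edgeR adjusted p = 3.41e-06). The call of PDK1-AS1 was lost without N2B27 replicate 3 or EPZ-6438 replicate 1 (edgeR adjusted p = 0.0654 and 0.0844).

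A further 2 falls and 1 rise among the largest had antisense calls that were lost when any 1 of several libraries was left out. FAM131B-AS2 had 4.01 to 5.43 CPM in N2B27 and 2.01 to 3.10 CPM with EPZ-6438 (1.94-fold lower, edgeR adjusted p = 0.0308), beside FAM131B at 13.3 to 16.5 CPM and 3.59 to 4.14 CPM (3.94-fold lower, edgeR adjusted p = 6.73e-07). The antisense call was lost without N2B27 replicate 1 or 3 or EPZ-6438 replicate 1 or 3 (edgeR adjusted p = 0.0894 to 0.122). NOP14-AS1, tail to tail with a ribosome biogenesis gene, had 6.54 to 7.45 CPM and 4.68 to 4.93 CPM (1.43-fold lower, edgeR adjusted p = 0.0485) and lost the call without any 1 of the 6 libraries (edgeR adjusted p = 0.0766 to 0.141). NOP14 differed by 1.02-fold. ZNF433-AS1 had 1.13 to 2.30 CPM and 2.55 to 3.96 CPM (1.97-fold higher, edgeR adjusted p = 0.0303) with ZNF433 1.69-fold higher (edgeR adjusted p = 0.0236). Without N2B27 replicate 2 or 3 or EPZ-6438 replicate 1 the antisense p was 0.116 to 0.151 (edgeR, adjusted), and without N2B27 replicate 2 or 3 or EPZ-6438 replicate 2 that of ZNF433 was 0.0792 to 0.130.

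EPZ-6438 against PXGL shares its inhibitor libraries with the comparison above and its PXGL libraries with the first one. In it 53 antisense RNAs were called higher and 44 lower (97, 34.0%), against 56.1% of all genes tested (28.1% higher and 28.0% lower) and 54.4% of tested partners (86 higher and 55 lower). Among the 185 present in all groups 29 rose and 29 fell, and against a threshold of 1.5-fold 37 antisense RNAs and 19.3% of all genes were called. FOXD3-AS1 was 4.62-fold higher (edgeR adjusted p = 2.18e-10), GBX2-AS1 4.67-fold higher (edgeR adjusted p = 3.15e-06), TMEM254-AS1 5.17-fold lower (edgeR adjusted p = 4.18e-08) and LMNTD2-AS1 5.27-fold lower (edgeR adjusted p = 4.71e-06). ELF3-AS1 overlaps the head of ELF3, an epithelial ETS factor. ELF3-AS1 had 5.54, 4.82 and 8.27 CPM in PXGL, 3.34, 2.39 and 2.80 CPM in N2B27 and 1.68, 1.64 and 2.10 CPM with EPZ-6438, 3.43-fold lower than PXGL (edgeR adjusted p = 1.8e-05). ELF3 had 154 to 164 CPM, 38.9 to 43.7 CPM and 63.9 to 73.9 CPM. It was 2.29-fold lower than in PXGL and 1.67-fold higher than in N2B27 (edgeR adjusted p = 1.77e-06), where ELF3-AS1 was 1.58-fold lower and did not pass (edgeR adjusted p = 0.0991). SPAG5-AS1, divergent to the mitotic spindle gene SPAG5, had 1.54 to 3.11 CPM in PXGL and 0.610 to 1.07 CPM with EPZ-6438, with SPAG5 at 186 to 189 CPM and 151 to 162 CPM (1.19-fold lower, edgeR adjusted p = 0.00156).

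Over all pairs the antisense RNA and its partner moved to the same side more often than to opposite sides. In 261 pairs with both genes tested, the log2 changes had the same sign in 171 pairs in N2B27 against PXGL, in 162 with EPZ-6438 against N2B27 and in 171 with EPZ-6438 against PXGL. Pearson's r across the 261 pairs was 0.50, 0.35 and 0.63, and Spearman's rank correlation 0.46, 0.38 and 0.50. These are descriptions across genes that share libraries, neighbourhood and, in most pairs, exon bases. In the 50 tested pairs without shared exon bases r was 0.56, 0.39 and 0.53 and the rank correlation 0.48, 0.31 and 0.44, with the same sign in 31, 28 and 30 pairs. These are 62%, 56% and 60%, where unlinked genes would split about evenly, and the difference from an even split was not tested. In the 210 tested pairs with shared exon bases r was 0.48, 0.35 and 0.65 and the rank correlation 0.46, 0.40 and 0.51, with the same sign in 139, 133 and 140 pairs. The part of shared reads in these values was not tested. Both genes were called in 58 pairs in N2B27 against PXGL, with 50 to the same side and 8 to opposite sides. For the inhibitor against N2B27 these numbers were 15, 14 and 1, and with EPZ-6438 against PXGL 58, 49 and 9. The 15 were 9 without N2B27 replicate 2, 6 without N2B27 replicate 3 or EPZ-6438 replicate 1, 7 without EPZ-6438 replicate 3 and 24 without PXGL replicate 1. Without shared exon bases both genes were called in 10, 4 and 10 pairs, with 8, 3 and 8 to the same side. More often only 1 gene of a pair was called: in N2B27 against PXGL the antisense RNA alone in 39 pairs and the sense gene alone in 84, and with EPZ-6438 against N2B27 in 14 and 59. In N2B27 against PXGL 36.5% of antisense RNAs and 54.4% of tested partners were called. Many pairs with both or only 1 gene called would arise from such shares without any link. Whether the numbers of pairs differ from that was not tested. The ratio of antisense to sense counts did not overlap between N2B27 and PXGL in 100 of 263 pairs with a ratio in every library (44 higher and 56 lower in N2B27), and between EPZ-6438 and N2B27 in 74 of 268 (41 higher and 33 lower). CPM ranges of single genes did not overlap for 60.8% and 46.4% of all genes tested in these comparisons. With 3 libraries against 3, an exact permutation test of a ratio cannot go below p = 0.1, so no ratio was tested.

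**Figure D4:**
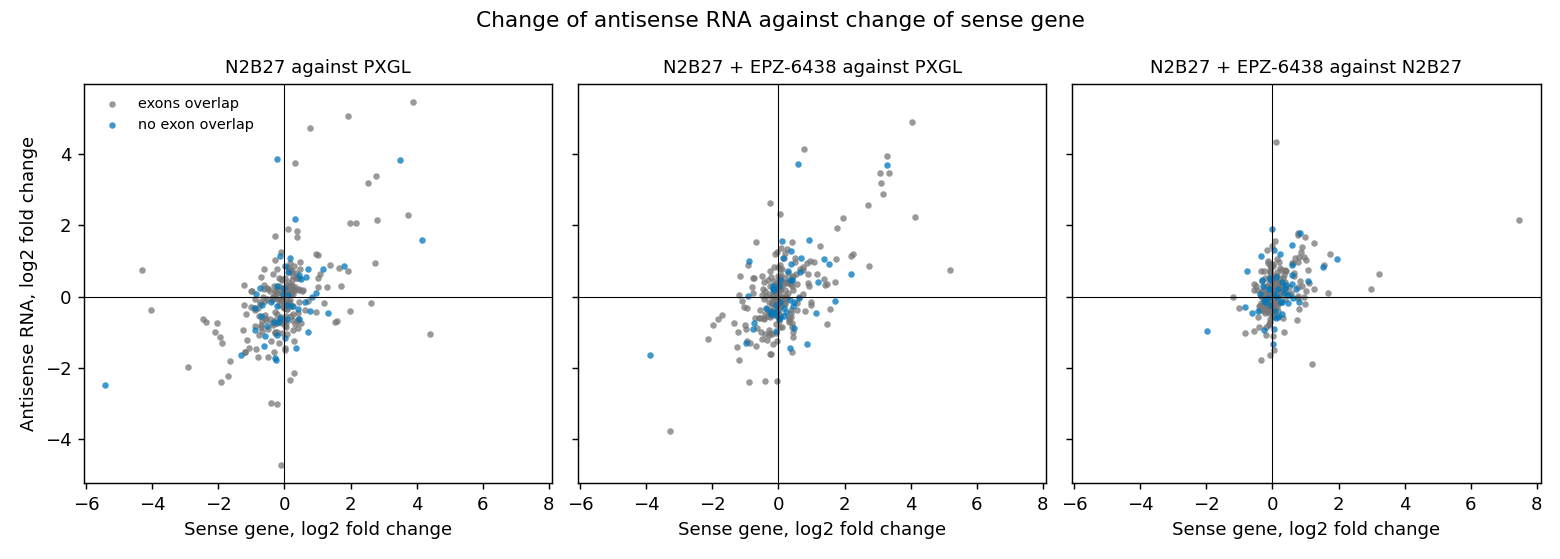
Log2 fold change of each antisense RNA (vertical) against that of its sense gene (horizontal) in the 3 comparisons, with pairs that share exon bases in grey and pairs that do not in blue (260 pairs with coordinates and both genes tested). More points lie at the lower left and upper right, and the spread is smallest for EPZ-6438 against N2B27; the point farthest right there is NR2F1, which had no count in N2B27, so that its fitted change has no fixed size.

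Pairs with both genes called to opposite sides were few. PSMA3 encodes a subunit of the proteasome core, and PSMA3-AS1 meets it tail to tail with no shared exon base. PSMA3-AS1 had 37.4, 37.3 and 36.5 CPM in PXGL, 23.4, 24.8 and 23.4 CPM in N2B27 and 27.9, 30.2 and 30.5 CPM with EPZ-6438. PSMA3 had 152, 122 and 110 CPM, then 174, 170 and 176 CPM, then 150, 136 and 145 CPM. The antisense RNA was lowest and the sense gene highest in N2B27, with no overlap with the other groups. PSMA3-AS1 fell 1.55-fold in N2B27 against PXGL (edgeR adjusted p = 7.62e-06) and PSMA3 rose 1.36-fold (edgeR adjusted p = 0.000609). With EPZ-6438 PSMA3-AS1 was 1.24-fold higher than in N2B27 (edgeR adjusted p = 0.0144) and PSMA3 1.21-fold lower (edgeR adjusted p = 0.0365). These last calls were lost without N2B27 replicate 1 or 3 or EPZ-6438 replicate 2 or 3 for PSMA3-AS1 (edgeR adjusted p = 0.0536 to 0.0603), and without any 1 of the 6 libraries compared for PSMA3 (edgeR adjusted p = 0.0631 to 0.152).

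PTPRG, a receptor tyrosine phosphatase gene, had 13.3, 17.6 and 18.5 CPM in PXGL, 48.7, 46.0 and 49.2 CPM in N2B27 and 47.4, 48.3 and 50 CPM with EPZ-6438. PTPRG-AS1 had 6.14, 6.52 and 7.11 CPM, then 4.04, 3.45 and 4.53 CPM, then 4.83, 5.96 and 4.75 CPM. In N2B27 against PXGL the sense gene rose 2.92-fold (edgeR adjusted p = 2.96e-09) and the antisense RNA fell 1.64-fold (edgeR adjusted p = 0.00354), although their exons share 1207 bases. VPS9D1-AS1 rose 1.84-fold with EPZ-6438 against PXGL (4.44 to 6.46 CPM against 9.06 to 11.5 CPM, edgeR adjusted p = 0.000261) while VPS9D1, of the Rab5 exchange factor domain family, fell 1.91-fold (edgeR adjusted p = 0.0102, and 0.0597 to 0.0601 without EPZ-6438 replicate 2 or PXGL replicate 3). TP73-AS1, annotated as a pseudogene, rose 1.26-fold in N2B27 against PXGL (edgeR adjusted p = 0.00364) where TP73, of the p53 family, fell 2.36-fold (edgeR adjusted p = 0.0361). The libraries of TP73 were at 0.766 to 3.55 CPM, and its call was lost without any 1 N2B27 library or PXGL replicate 2 or 3 (edgeR adjusted p = 0.0592 to 0.189). TP73-AS1 was 1.22-fold lower with EPZ-6438 than in N2B27 (edgeR adjusted p = 0.0271), a call lost without any 1 N2B27 library or EPZ-6438 replicate 1 or 2 (edgeR adjusted p = 0.0501 to 0.128). The antisense RNAs of several further pairs of this kind were below 1 CPM in 1 or 2 groups. FRMD6-AS2 had 2.03 to 2.44 CPM in PXGL and 0.734 to 0.905 CPM in N2B27, with the Hippo pathway gene FRMD6 at 57.1 to 60.4 CPM and 72.1 to 77.8 CPM. DICER1-AS1 had 1.39 to 2.30 CPM in PXGL, 0.267 to 0.422 CPM in N2B27 and 0.268 to 0.949 CPM with EPZ-6438, with the miRNA-processing enzyme gene DICER1 at 136 to 201, 191 to 206 and 221 to 239 CPM. ZSWIM8-AS1 had 0.876 to 1.81 CPM in PXGL and 0.133 to 0.422 CPM in N2B27, and RAP2C-AS1 0.932 to 1.86 CPM and 0.211 to 0.905 CPM. Their partners went up: ZSWIM8, of a ubiquitin ligase that takes part in miRNA decay, by 1.23-fold (edgeR adjusted p = 0.0450, and 0.0540 to 0.138 without any 1 N2B27 library or PXGL replicate 1 or 3) and RAP2C, a small GTPase gene, by 1.23-fold (edgeR adjusted p = 0.00184). Of the ZSWIM8-AS1 exon bases 64.6% lie in exons of ZSWIM8. WDFY3-AS2 had 0.822 to 1.39 CPM in PXGL and 0.268 to 0.730 CPM with EPZ-6438, while WDFY3, a gene of aggregate autophagy, rose 1.82-fold (edgeR adjusted p = 0.000222). PITRM1-AS1 had 0.548 to 0.876 CPM and 1.48 to 2.98 CPM, while PITRM1, a mitochondrial peptidase gene, fell 1.6-fold (edgeR adjusted p = 8.25e-07). ZNF571-AS1 rose 1.44-fold with EPZ-6438 against PXGL (3.62 to 6.72 CPM against 6.45 to 9.06 CPM, edgeR adjusted p = 0.0468) with overlapping ranges, a call lost without EPZ-6438 replicate 1 or 3 or PXGL replicate 2 (edgeR adjusted p = 0.0637 to 0.220), and ZNF571 fell 1.68-fold (edgeR adjusted p = 0.000102).

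**Figure D5:**
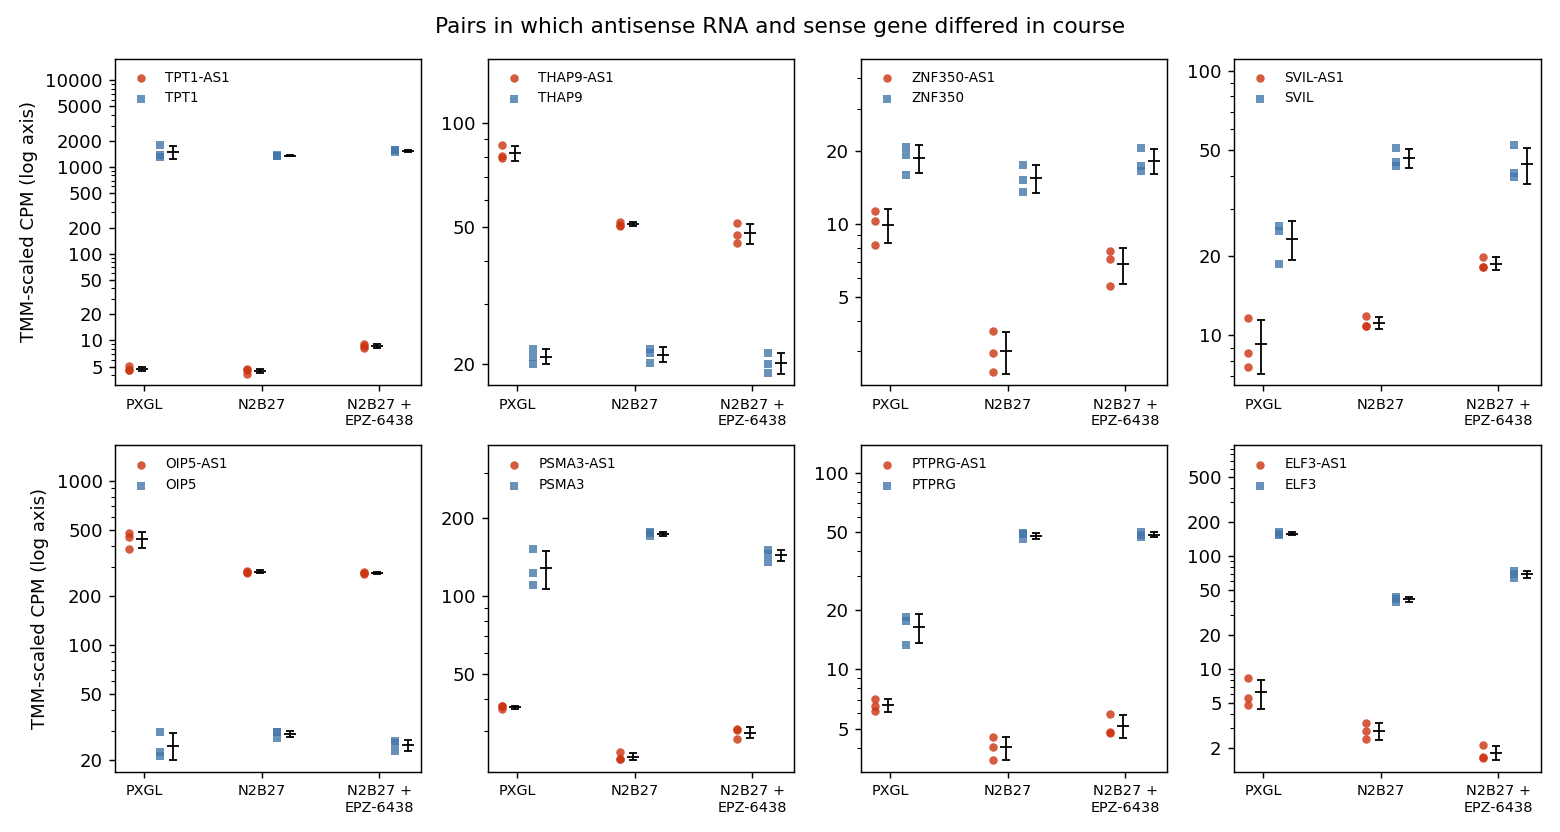
TMM-scaled CPM (log axis) of 8 pairs in which the calls of antisense RNA and sense gene were unlike in at least 1 comparison. Whether both changes differed was not tested. Antisense RNAs are red circles and sense genes blue squares, with 1 point per library and bars for the mean ± SD (n = 3). TPT1-AS1 is higher with EPZ-6438 (8.18 to 9.22 CPM) than in N2B27 (4.15 to 4.67 CPM) while TPT1 did not pass the test, and PSMA3-AS1 is lowest where PSMA3 is highest.

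Antisense RNAs of developmental transcription factors formed a group of 15, by a list of gene family prefixes. The prefixes also caught PAXIP1 and PAXBP1, which interact with PAX proteins and are not members of that family. They do not cover every such factor: GBX is not among them, so that GBX2-AS1 is outside this group. With EPZ-6438 against N2B27 3 of the 15 were called higher and 2 lower (33.3%, beside 24.7% of all genes tested), and of their 12 tested partners 7 were higher and 1 lower. Of these antisense calls only that of FOXD3-AS1 held whichever library was left out. Those of NR2F1-AS1, SOX21-AS1, TP73-AS1 and SATB1-AS1 were each lost without at least 1 library, and that of SATB1-AS1 also in the DESeq2 test. The median log2 change was 0.53 for the antisense RNAs and 0.68 for the partners. In N2B27 against PXGL 3 were higher and 3 lower (40% of 15, beside 56.0% of all genes tested). Several of the 15 reached 1 CPM in only 1 or 2 groups, so that these counts are a description. PAX8-AS1, tail to tail with the kidney and thyroid factor PAX8, had 28.7, 30.5 and 34.5 CPM in PXGL, 22.8, 21.2 and 22.9 CPM in N2B27 and 23.3, 20.1 and 24.1 CPM with EPZ-6438. It fell 1.40-fold in N2B27 against PXGL (edgeR adjusted p = 0.000736), and PAX8 fell 2.23-fold (edgeR adjusted p = 0.00415) from 2.68 to 2.74 CPM to 0.844 to 1.73 CPM. PAXIP1-AS2 fell 2.37-fold (edgeR adjusted p = 0.000744), beside a 1.33-fold fall of PAXIP1 (edgeR adjusted p = 9.52e-05).

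NR2F1, a nuclear receptor of neural and mesodermal progenitors, and NR2F1-AS1 were both seen mainly with EPZ-6438. NR2F1-AS1 had 0.219, 0.110 and 0.278 CPM in PXGL, 0.418, 0.0703 and 0.533 CPM in N2B27 and 1.21, 2.13 and 1.29 CPM with EPZ-6438. NR2F1 had 0.329 and 0.110 CPM in 2 PXGL libraries, no count in the other PXGL library or in N2B27, and 1.61, 1.09 and 1.42 CPM with EPZ-6438. Its 63 counts in the inhibitor group against none in N2B27 made it at least 19.9-fold higher, with 3 counts over the group as the floor. SATB1-AS1, divergent to the chromatin organiser SATB1, had 0.200 to 0.766 CPM in N2B27 and 0.813 to 1.70 CPM with EPZ-6438, with SATB1 at 3.20 to 4.27 CPM and 5.03 to 6.02 CPM. TBX5-AS1, divergent to the heart and forelimb factor TBX5, had 4 counts in PXGL, 47 in N2B27 and 57 with EPZ-6438. TBX5 had 7 counts each in PXGL and N2B27 and 61 with EPZ-6438. TBX5-AS1 thus had few counts in PXGL only, and TBX5 few in PXGL and N2B27. With EPZ-6438 TBX5 was 8.24-fold above N2B27 (95% exact counting interval 3.77 to 21.4, counting error only).

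HOXB-AS1, at chromosome 17, 48543551 to 48551250, lies in the HOXB cluster, whose genes pattern the body axis and are known PRC2 targets. It had 1.54, 1.64 and 1.0 CPM in PXGL, 0.348, 0.703 and 0.133 CPM in N2B27 and 0.335, 0.182 and 0.678 CPM with EPZ-6438, or 76, 17 and 18 summed counts. PXGL was higher in every library, and both N2B27 groups overlapped. The 9 other antisense symbols of the HOX clusters were under the level of 1 CPM and summed to 125 counts in PXGL, 5 in N2B27 and 97 with EPZ-6438. Among them, chosen after their values were seen, HOXA-AS2 had 21, 0 and 33 counts and HOXD-AS2 40, 3 and 24.

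Several antisense RNAs were below 1 CPM on average in PXGL and above it in N2B27. PELO-AS1, divergent to PELO, a factor that rescues stalled ribosomes, had 7 counts in PXGL, 157 in N2B27 and 111 with EPZ-6438, and PELO rose 1.70-fold in N2B27 (22.1 to 28.1 CPM against 40 to 48.1 CPM, edgeR adjusted p = 7.91e-06). B3GALT5-AS1 had 0.110 to 0.878 CPM in PXGL, 6.13 to 9.61 CPM in N2B27 and 6.44 to 8.09 CPM with EPZ-6438. B3GALT5, a galactosyltransferase of glycolipid synthesis in which it is embedded without shared exon bases, rose 11.3-fold in N2B27 (edgeR adjusted p = 4.5e-11). TRHDE-AS1 had 0.438 to 0.603 CPM in PXGL, 5.27 to 6.4 CPM in N2B27 and 5.03 to 6.75 CPM with EPZ-6438, beside a 6.86-fold rise of the peptidase gene TRHDE (edgeR adjusted p = 1.12e-05). DLGAP1-AS2 had 0.333 to 1.21 CPM in PXGL, 6.33 to 6.34 CPM in N2B27 and 6.37 to 8.03 CPM with EPZ-6438, while DLGAP1, a scaffold of synapses, was at 0 to 0.407 CPM in all 9 libraries and was too low to test. JAKMIP2-AS1 had 3 counts in PXGL, 92 in N2B27 and 26 with EPZ-6438. JAKMIP2 had 10, 31 and 76 counts in the same order.

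Other antisense RNAs were above 1 CPM on average in PXGL and below it in N2B27. RBM5-AS1 is embedded in the splicing factor gene RBM5, with 73% of its exon bases in exons of other genes. It had 0.768, 2.14 and 3.17 CPM in PXGL, 0, 0.211 and 0 CPM in N2B27 and 1.27, 2.68 and 0.678 CPM with EPZ-6438, so that N2B27 was lowest and the other groups overlapped. Its summed counts were 110 in PXGL, 3 in N2B27 and 73 with EPZ-6438. RBM5 had 120 to 136 CPM in all libraries and did not pass in any comparison. PHKA2-AS1 had 1.94 to 2.90 CPM in PXGL, 0.139 to 0.352 CPM in N2B27 and 0.335 to 1.16 CPM with EPZ-6438, with PHKA2, a phosphorylase kinase subunit gene, at 16.8 to 22.4 CPM throughout. Of the PHKA2-AS1 exon bases 64.2% lie in exons of PHKA2. CEACAM16-AS1 had 1.92 to 2.74 CPM in PXGL, 0.766 to 1.20 CPM in N2B27 and 0.426 to 0.813 CPM with EPZ-6438, and CEACAM16 had no count in any library.

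Other antisense RNAs were below 1 CPM on average in N2B27 and above it with EPZ-6438. ALDH1A3-AS1 had 0.438 to 1.32 CPM in PXGL, 0.281 to 1.46 CPM in N2B27 and 1.63 to 3.16 CPM with EPZ-6438. ALDH1A3, an enzyme of retinoic acid synthesis, rose 1.98-fold (14.2 to 16.7 CPM against 25.5 to 34.0 CPM, edgeR adjusted p = 1.97e-05). DCHS1-AS1 had 0.603 to 1.28 CPM in PXGL, 0.141 to 1.33 CPM in N2B27 and 2.19 to 2.51 CPM with EPZ-6438, beside a 1.71-fold rise of the protocadherin gene DCHS1 (edgeR adjusted p = 0.00114). All exon bases of DCHS1-AS1 lie in exons of another gene, so that its reads cannot be told from those of DCHS1. BAALC-AS1 was also above 1 CPM in PXGL, with 2.0 to 2.96 CPM, and had 0.557 to 1.05 CPM in N2B27 and 1.14 to 3.59 CPM with EPZ-6438, with BAALC at 0 to 0.165 CPM in all libraries.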

How the data were processed

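RNA of 3 samples per group was sequenced, 1 library each. Per the labels' protocols a ribosomal RNA depletion kit was used, while the molecule label names polyA RNA. The series text speaks of both triplicate and duplicate samples. The submitters' processing notes name hg38, DESeq2, STAR 2.7.6a and Trim Galore; no source used here names the counting program, its strand setting or the annotation. The authors deposited 1 table of expected counts, which are estimated and need not be whole: 145 of the 285 antisense RNAs had whole counts in all 9 libraries (within 1e-06) and 63 in none. Divided counts arise where reads are shared between genes. No source says that replicates were separate cultures; the p-values then rest only on how far these libraries differ, which may be a technical spread.

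Counts were rounded. edgeR 4.0.16 (R 4.3.3) fitted all 9 libraries together with a term per group (filterByExpr, TMM scaling, robust quasi-likelihood test), and p-values were Benjamini-Hochberg adjusted over 15179 genes, with 0.05 as threshold. The fit was also run on simulated counts with far fewer changed genes than were called here, so that run does not bear on the calls. CPM values printed are TMM-scaled, and the level of 1 CPM used plain CPM. Gene positions and exon lengths came from GENCODE 29 (36547 symbols matched by name, 3672 by Ensembl ID, of 40332), and overlaps from bedtools. Counting intervals (95%) and floors (3 counts over a group) cover counting error only.

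The antisense RNAs, gene lists and tests were chosen with earlier results of these data known. Named were, per comparison, the 6 largest rises and 6 largest falls that passed with separate ranges and at least 2 CPM, HOX cluster members, up to 6 opposite pairs and up to 6 transcription factor hosts, and over all groups the 6 highest levels and the 5 symbols on each side of 1 CPM. Alternatives were DESeq2 1.42.0, other filters, fewer groups, a replicate block, a 1.5-fold threshold, other levels, and leaving out each library.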

Additional observations from a re-analysis of the deposited data

How the results depend on the processing

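No result reversed direction under any alternative. Counts are given as antisense RNAs, sense partners and pairs with both genes called, for EPZ-6438 against N2B27, N2B27 against PXGL and EPZ-6438 against PXGL in that order (30, 74, 15; 104, 141, 58; 97, 141, 58 as reported). A test against 1.5-fold gave 5, 13, 0, then 48, 54, 19, then 37, 58, 18. Restriction to pairs without shared exon bases gave 9, 20, 4, then 22, 27, 10, then 19, 28, 10, and restriction to antisense RNAs with whole counts in all libraries, chosen after seeing the data, 14, 36, 7, then 52, 68, 27, then 51, 81, 32; both test fewer genes. Among the 185 antisense RNAs at 1 CPM in all 3 groups there were 48 called partners in the first comparison, then 65, 88 and 37, then 58, 84 and 32. At 2 CPM 48, 85 and 85 partners were called. A fit of only the 2 groups compared called 118 partners and 23 pairs with EPZ-6438 against N2B27. Leaving out each library gave 18 to 44 antisense RNAs, 55 to 123 partners and 6 to 24 pairs, then 86 to 118, 130 to 166 and 45 to 78, then 75 to 101, 127 to 170 and 45 to 67. The share of all genes called was then 17.8% to 37.2%, 49.3% to 61.2% and 49.1% to 60.9%. A replicate block gave 29, 72 and 14, then 103, 142 and 59, then 98, 141 and 60, beside 24.3%, 56.0% and 55.9% of all genes. Replicate numbers did not pair the libraries, with correlations of same-numbered deviations from -0.0256 to 0.0369, so the block has no basis in the design. Where an antisense RNA is at 1 to 2 CPM, a library holds few reads of it, and changes of a size under the replicate spread are not detectable at this depth.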
